A study of Mus musculus with 8 samples.

Results

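Helper and regulatory T cell effector genes are described here in brain RNA of mice immunized with myelin oligodendrocyte glycoprotein (MOG), which brings on an autoimmune disease of the central nervous system led by T cells and used to model multiple sclerosis. The 9 genes were given as a list: the cytokine genes Ifng, Il17a, Il10 and Csf2, the regulatory T cell factor gene Foxp3, the surface receptor genes Il2ra, Ctla4 and Icos, and the transcription factor gene Stat4. All 9 were found among the 22180 genes of the table. Total brain was taken on day 14 after immunization, at the maximum of the disease, and hybridised to 8 Affymetrix whole-transcript arrays. The 4 groups of 2 arrays were C57BL/6Je/e mice (e/e below) given NDP-MSH, e/e mice given phosphate-buffered saline (PBS), wild-type mice given NDP-MSH and wild-type mice given PBS. All groups shared the immunization. NDP-MSH, a stable analog of the hormone alpha-MSH, was given by vein on days 8, 10 and 12, each time 5 µg to a mouse. The e/e allele inactivates the melanocortin receptor Mc1r, and the mice were told apart by their yellow or black coat. No source states that the 2 replicates of a group were separate animals, so the p-values measure the spread between these arrays.

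Effector CD4 T cells are sorted by the cytokines they make. Th1 cells make interferon gamma (Ifng) under the control of Stat4 and Tbx21, Th17 cells make interleukin 17A (Il17a), and both can make GM-CSF (Csf2), which acts on myeloid cells. Regulatory T cells depend on Foxp3, carry Il2ra and Ctla4 at high density, and restrain the other cells partly through interleukin 10 (Il10). In MOG-immunized mice the helper cells drive the inflammation of the central nervous system and the regulatory cells are known from its recovery phase.

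Values are the authors' log values, taken as log2, and each probe set is centred on its median over the 8 arrays, which leaves differences between arrays and no absolute level. The number format of the table still shows in which range the lowest array of a probe set lay before centring. For all 10 probe sets of the 9 genes this was 4 to 8, as for 75.7% of the table, and other arrays may have lain higher. No probe set that could be placed lay below 4, so 4 to 8 was the lowest range found. Whether the 9 genes rose above background was not tested. The brain markers lay higher, with 5 of 6 neuronal, 5 of 5 oligodendrocyte and 5 of 5 astrocyte probe sets at 8 or above, and of the 13 T cell identity probe sets 1 did so, that of Thy1, a gene that neurons also express, while 2 could not be placed. In whole brain, fewer T cells and less RNA per T cell cannot be told apart. Some arrays stood apart in other transcripts. Xist, the RNA of the inactive X chromosome, measured -4.46 and -4.56 for e/e NDP-MSH, against -0.82 to 0.67 elsewhere. The Y-linked Eif2s3y measured 2.78 and 2.87 for e/e NDP-MSH, 2.04 for e/e PBS 2, and no more than 0.018 elsewhere, so Xist and a Y-linked transcript were found together in e/e PBS 2. The median of 5 cerebellar genes was -2.60 and -2.03 for wild-type NDP-MSH, and the pituitary gene Prl measured 6.97 in wild-type NDP-MSH 1. The part of sex, cerebellar and pituitary tissue in the results below was not tested.

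The 9 genes differed in how far they ranged over the 8 arrays. Il17a covered 0.11 (log2, highest minus lowest array), Il10 0.18 and Csf2 0.27, all below the 0.33 of the median gene. The Csf2 value is that of the mean of 2 probe sets, which disagreed. The first alone ran from -0.28 in e/e PBS 2 to 0.36 in wild-type PBS 2. The second ran from -0.11 in e/e NDP-MSH 2 to 0.087 in e/e PBS 2. Ifng covered 0.39 and Ctla4 0.45. Foxp3 (0.77), Stat4 (0.87), Il2ra (0.93) and Icos (0.93) exceeded the 0.66 that 90% of all genes stayed under. Cd3e, an invariant chain of the T cell receptor complex, covered 1.97 and Cd4, the coreceptor of helper T cells, 1.94. With Csf2 taken as the mean of its probe sets, the cytokine genes were the flattest of the list. Cd3e and Cd4 were the widest of the 13 T cell identity genes, whose median range was 0.55, and 9 of the 13 ranged over less than Foxp3.

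**Figure D1:**
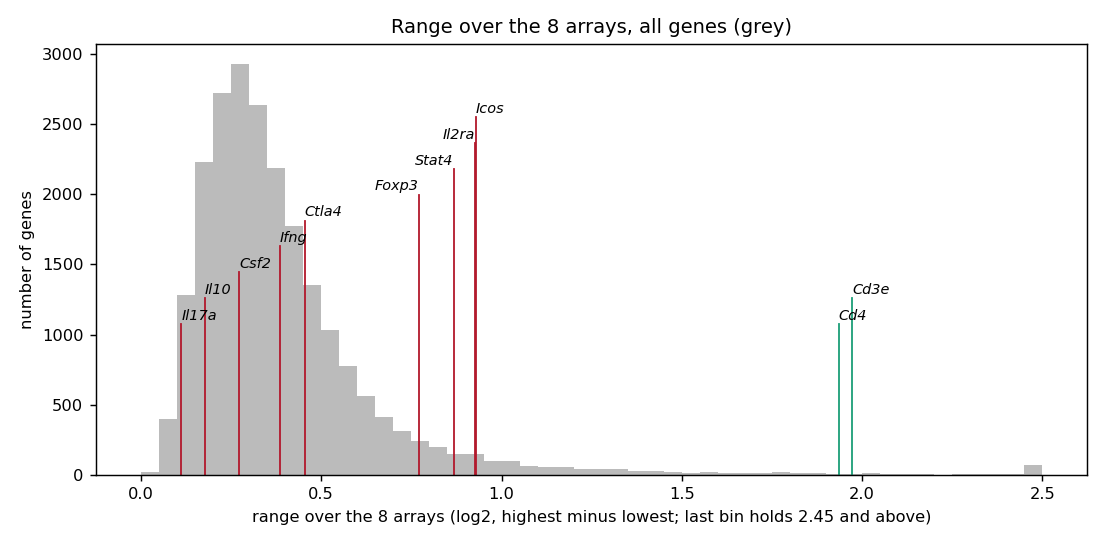
Histogram of the range over the 8 arrays (log2, highest minus lowest) for all 22180 genes, with the 9 effector genes in red and the T cell markers Cd3e and Cd4 in green. Il17a, Il10 and Csf2 (mean of 2 probe sets) lie below the median gene (0.33), and Icos and Il2ra lie at 0.93.

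Promoters of 4 of these genes are shown because they stand for the roles described below: a helper cytokine (Ifng), the regulatory T cell factor (Foxp3), a surface receptor (Il2ra) and a Th1 transcription factor (Stat4). Each runs 5′ to 3′ from 250 bases before to 50 after a transcript start in RefSeq, build GRCm38.p6, plus strand. The windows are chr10:118440796-118441095, chrX:7579426-7579725, chr2:11642542-11642841 and chr1:51986898-51987197, in the order printed. Capitals mark GGAAA on either strand, the core letters bound by NFAT, the factor that T cell receptor signals activate.
Ifng: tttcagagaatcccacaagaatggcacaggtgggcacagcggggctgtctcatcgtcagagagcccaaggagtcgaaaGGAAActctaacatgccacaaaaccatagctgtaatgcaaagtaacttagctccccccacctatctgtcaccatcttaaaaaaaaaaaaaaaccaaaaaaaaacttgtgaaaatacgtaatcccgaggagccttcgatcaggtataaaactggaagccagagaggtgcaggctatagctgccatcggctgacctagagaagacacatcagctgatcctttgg
Foxp3: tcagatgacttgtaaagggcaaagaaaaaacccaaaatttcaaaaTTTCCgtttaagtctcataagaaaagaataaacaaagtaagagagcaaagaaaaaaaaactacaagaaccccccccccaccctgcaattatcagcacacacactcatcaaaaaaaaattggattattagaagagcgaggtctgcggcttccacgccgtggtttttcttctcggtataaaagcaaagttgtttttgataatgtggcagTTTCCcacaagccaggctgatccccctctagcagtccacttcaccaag
Il2ra: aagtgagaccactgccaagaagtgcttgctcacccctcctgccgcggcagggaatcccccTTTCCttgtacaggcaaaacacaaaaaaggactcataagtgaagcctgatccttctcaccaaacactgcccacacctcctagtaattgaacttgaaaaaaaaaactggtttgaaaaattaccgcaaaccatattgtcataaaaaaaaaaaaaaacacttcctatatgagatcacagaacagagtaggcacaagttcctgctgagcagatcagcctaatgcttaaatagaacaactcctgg
Stat4: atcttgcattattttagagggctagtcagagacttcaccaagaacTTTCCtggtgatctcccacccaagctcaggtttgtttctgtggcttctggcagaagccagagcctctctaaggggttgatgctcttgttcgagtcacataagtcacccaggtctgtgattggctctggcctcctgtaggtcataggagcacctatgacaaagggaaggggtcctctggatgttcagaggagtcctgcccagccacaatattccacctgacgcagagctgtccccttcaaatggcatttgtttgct
RefSeq windows were matched for 7 of the 9 genes, with 2 starts each for Foxp3 and Stat4, and none was used for Il10 and Icos. GGAAA was in 8 of the 9 windows, the exception being Il17a, and in 61.3% of 32851 promoters of this length. The AP-1 letters TGAGTCA were in 0 of the 9 windows and in 5.20% of all promoters, and the STAT letters TTCNNNGAA in 2 of the 9, those of Ifng and of the other Foxp3 start, and in 8.30% of all. A match describes the letters and shows no binding.

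Ifng encodes interferon gamma, the cytokine of Th1 cells that activates macrophages and antigen presentation. It measured 0.012 and 0.017 in wild-type NDP-MSH, against -0.16 and 0.19 in wild-type PBS. Among e/e arrays it measured -0.18 and -0.012 after NDP-MSH, against -0.17 and 0.20 after PBS. The high arrays were wild-type PBS 2 and e/e PBS 2, and NDP-MSH and PBS values overlapped within both genotypes. The difference NDP-MSH minus PBS was -0.0021 ± 0.15 in wild-type and -0.11 ± 0.15 in e/e mice (SE of the limma fit over all 8 arrays, n = 2 arrays a group), with 95% intervals of -0.36 to 0.36 and -0.47 to 0.25. The genes listed as interferon gamma targets ranged further, and whether Ifng or another signal moved them was not tested. The median of 10 interferon gamma targets measured 0.33 and 0.33 in wild-type NDP-MSH, against -0.26 and 0.54 in wild-type PBS. The e/e medians were -2.16 and -2.07 after NDP-MSH, against -1.77 and 0.69 after PBS. Both were highest in e/e PBS 2, next highest in wild-type PBS 2 and lowest in e/e NDP-MSH 1. Among wild-type arrays both were lowest in PBS 1. Their sizes did not run parallel. In e/e NDP-MSH 2 Ifng lay at -0.012 with the targets at -2.07, and in wild-type PBS 1 Ifng lay at -0.16 with the targets at -0.26.

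Il17a encodes the Th17 cytokine that recruits neutrophils. It lay at 0.047 and 0.013 in wild-type NDP-MSH, against -0.0097 and -0.065 in wild-type PBS. Among e/e arrays it measured -0.019 and 0.0097 after NDP-MSH, against 0.012 and -0.022 after PBS. The wild-type groups did not overlap, but the difference was 0.067 ± 0.068 (adjusted p = 0.719, limma with Benjamini-Hochberg adjustment over all genes). Il10 encodes a cytokine that dampens inflammation and is made by regulatory T cells among others. It lay at 0.013 and 0.11 in wild-type NDP-MSH, against 0.074 and -0.0001 in wild-type PBS. The e/e values were 0.0001 and -0.018 after NDP-MSH, against -0.0089 and -0.069 after PBS. The 95% interval of the NDP-MSH difference was -0.15 to 0.20 in wild-type and -0.14 to 0.20 in e/e mice, so for Il10 as for Il17a (-0.092 to 0.23 and -0.16 to 0.16) the intervals ended within 0.23 of no difference. Both genes lay in the lowest signal range found. Whether they rose above background was not tested, so narrow intervals need not mean an unchanged transcript.

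Csf2 encodes GM-CSF, which helper T cells need to induce this disease in mice. The mean of its 2 probe sets lay at 0.0058 and 0.089 in wild-type NDP-MSH, against 0.0076 and 0.17 in wild-type PBS. Among e/e arrays it measured 0.11 and -0.059 after NDP-MSH, against -0.068 and -0.0985 after PBS. The e/e groups did not overlap, and the difference was 0.11 ± 0.092 (adjusted p = 1), which was 0.024 without e/e NDP-MSH 1 and 0.19 without e/e NDP-MSH 2. The probe sets disagreed. In e/e mice the first lay at 0.25 and -0.011 after NDP-MSH, against -0.16 and -0.28 after PBS, and the second at -0.031 and -0.11, against 0.028 and 0.087. They moved in opposite directions, with differences of 0.34 and -0.13, so no direction for Csf2 in e/e mice rests on both.

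Foxp3 encodes the transcription factor that defines regulatory T cells. It lay at 0.32 and -0.0095 in wild-type NDP-MSH, against 0.062 and 0.30 in wild-type PBS. The e/e values were -0.32 and -0.30 after NDP-MSH, against -0.45 and 0.0095 after PBS. NDP-MSH and PBS values overlapped in both genotypes, with differences of -0.027 ± 0.17 in wild-type and -0.088 ± 0.17 in e/e mice. The e/e difference was -0.32 with e/e PBS 1 left out and 0.14 with e/e PBS 2 left out. By genotype the values separated more: 3 of the 4 e/e arrays lay between -0.45 and -0.30, and no wild-type array lay under -0.0095. The same 3 arrays were the lowest in the medians of T cell identity genes, interferon gamma targets and myeloid markers. The myeloid median was -0.99 and -1.21 for e/e NDP-MSH, against -0.87 and 0.18 for e/e PBS. Neutrophil and Th17 medians did not have this order. The part of cell content and of sex in the Foxp3 values was not tested. The difference e/e minus wild-type was -0.46 ± 0.17 under NDP-MSH (95% interval -0.87 to -0.062, adjusted p = 0.286) and -0.40 ± 0.17 under PBS (-0.80 to -0.0006, adjusted p = 0.971). Neither passed. Without e/e PBS 2 the PBS difference was -0.63 (adjusted p = 0.328), and without e/e PBS 1 it was -0.17. The NDP-MSH difference was -0.30 without wild-type NDP-MSH 1 and -0.63 without wild-type NDP-MSH 2. A further probe set that covers Foxp3 together with its neighbours Ccdc22 and Ppp1r3f was left out, since its signal cannot be assigned to 1 gene.

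Il2ra encodes CD25, the chain that gives the interleukin 2 receptor its high affinity. It lay at 0.17 and -0.20 in wild-type NDP-MSH, against 0.20 and 0.38 in wild-type PBS. Among e/e arrays it measured -0.42 and -0.17 after NDP-MSH, against -0.35 and 0.51 after PBS. The wild-type groups did not overlap, and in e/e mice the groups overlapped, with the PBS arrays far apart and e/e PBS 2 the highest of all. The differences were -0.31 ± 0.26 in wild-type (95% interval -0.92 to 0.30, adjusted p = 0.662) and -0.37 ± 0.26 in e/e mice (-0.98 to 0.24, adjusted p = 1). The wild-type difference was -0.495 without wild-type NDP-MSH 1 and -0.12 without wild-type NDP-MSH 2. Without e/e PBS 1 the e/e difference was -0.80 (adjusted p = 0.198), and without e/e PBS 2 it was 0.056, so its direction rested on which PBS array was kept. With each gene centred on its mean over the 8 arrays, the genes nearest to Il2ra were Malt1, a signalling gene of antigen receptors, at a root-mean-square difference of 0.077, Flna, which encodes an actin-binding protein, at 0.10 and Plce1, which encodes a phospholipase C, at 0.10.

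Ctla4 and Icos lie next to each other on chromosome 1, with Cd28 on the other side of Ctla4, and all 3 encode related costimulatory receptors. Ctla4, the inhibitory one, lay at 0.029 and 0.0014 in wild-type NDP-MSH, against 0.22 and 0.023 in wild-type PBS. The e/e values were -0.084 and -0.24 after NDP-MSH, against -0.042 and -0.0014 after PBS. The e/e groups did not overlap, with the NDP-MSH arrays lower, but the difference of -0.14 ± 0.092 did not pass (adjusted p = 1), and was -0.062 without e/e NDP-MSH 2 and -0.22 without e/e NDP-MSH 1. Icos, an activating receptor of effector and follicular helper cells, lay at 0.41 and 0.17 in wild-type NDP-MSH, against -0.11 and 0.11 in wild-type PBS. Among e/e arrays it measured -0.21 and -0.52 after NDP-MSH, against -0.26 and 0.23 after PBS. The NDP-MSH arrays were higher in wild-type mice without overlap (0.29 ± 0.18, adjusted p = 0.55), and in e/e mice the groups overlapped (-0.35 ± 0.18, adjusted p = 1). The wild-type difference of Icos was 0.17 without wild-type NDP-MSH 1, the array with pituitary transcripts, and the e/e difference was -0.60 when e/e PBS 1 was left out and -0.10 when e/e PBS 2 was. Cd28, the activating receptor of naive T cells, lay at 0.35 and 0.33 in wild-type NDP-MSH, against 0.078 and -0.097 in wild-type PBS (0.35 ± 0.095, adjusted p = 0.257). By the same mean-centred measure the genes nearest to Icos were the interferon-induced Ifit3b (root-mean-square difference 0.065), the lectin-like gene Clec2d (0.067) and Fam111a (0.071).

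Stat4 encodes the transcription factor that carries the interleukin 12 signal in Th1 cells. It lay at 0.77 and 0.35 in wild-type NDP-MSH, against 0.17 and -0.048 in wild-type PBS. The e/e values were -0.041 and -0.10 after NDP-MSH, against 0.041 and -0.055 after PBS. Both wild-type NDP-MSH arrays were above all other arrays, of which wild-type PBS 1 was the highest. The wild-type difference was 0.50 ± 0.14 (1.41-fold, 95% interval 0.17 to 0.83), with an unadjusted p of 0.00892 that did not pass over all genes (adjusted p = 0.274, limma). It was 0.29 without wild-type NDP-MSH 1, the array with pituitary transcripts, and 0.71 without wild-type NDP-MSH 2. These were also the 2 arrays in which cerebellar transcripts were low. In e/e mice the difference was -0.063 ± 0.14 (95% interval -0.39 to 0.27).

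**Figure D2:**
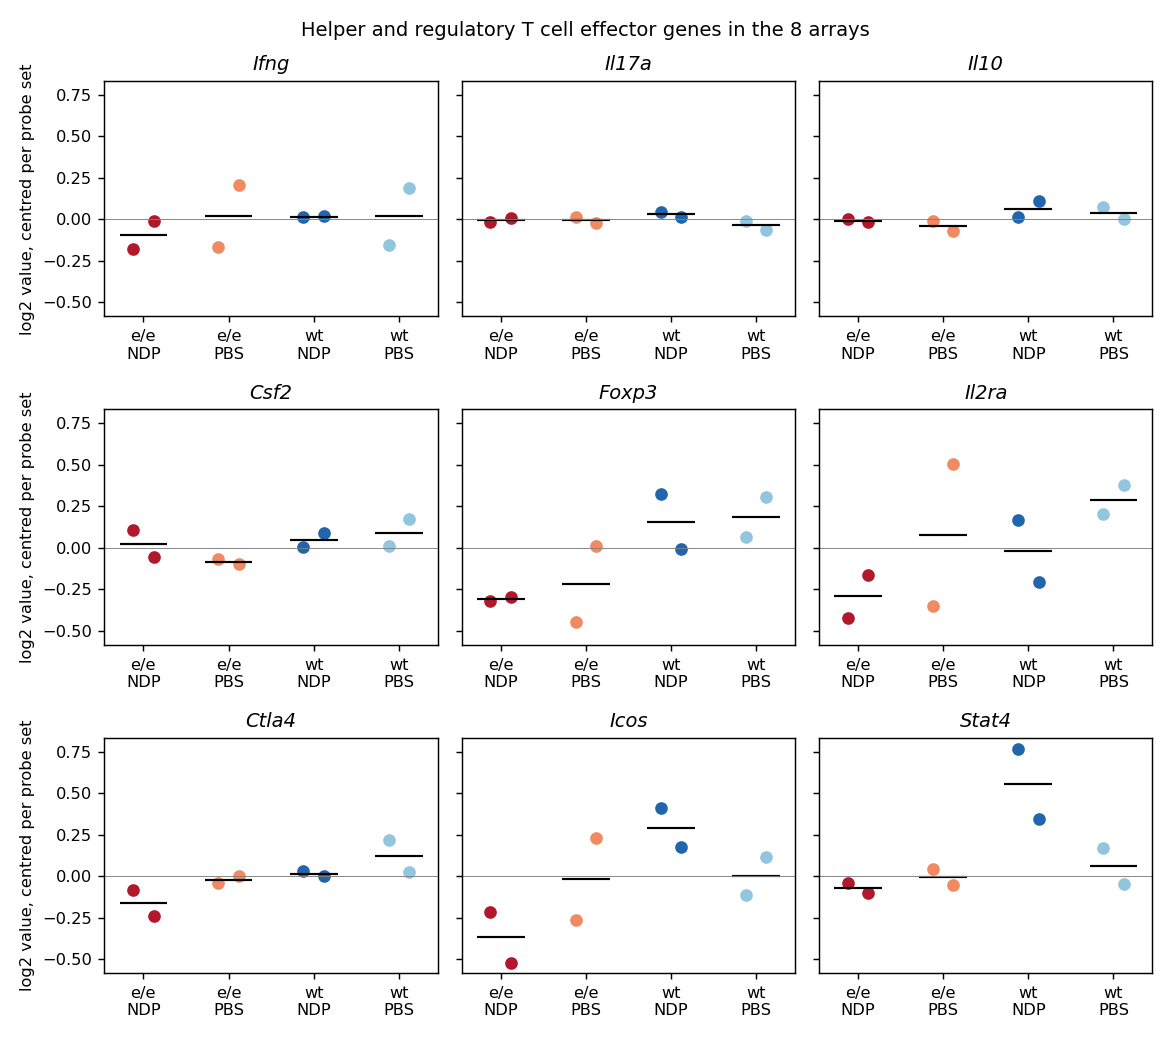
Values of the 9 genes in the 8 arrays (log2, each probe set centred on its median, Csf2 as the mean of 2 probe sets), with a panel per gene, points for arrays and a line for the mean of each group of 2. NDP stands for NDP-MSH and wt for wild-type. Il17a and Il10 stay within 0.11 of 0 in all arrays, and Stat4 has its highest values, 0.77 and 0.35, in wild-type NDP-MSH.

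The first comparison the series names, NDP-MSH against PBS in wild-type mice, asks how a melanocortin agonist changes brain transcripts where Mc1r works. None of the 9 genes passed an adjusted p of 0.05 by limma, beside 0.176% of all genes called in either direction. The calls included all 5 measured cerebellar genes, lower with a median of -2.34. Low cerebellar transcripts and NDP-MSH fell on the same wild-type arrays, so the 2 cannot be told apart here. At an unadjusted p under 0.05, 1 of 9 was higher (Stat4) beside 6.72% of all genes, and 0 of 9 were lower beside 5.6%. The groups did not overlap for 3 of 9 in the higher direction (Icos, Il17a and Stat4) beside 25.3% of all genes, and for 1 of 9 in the lower direction (Il2ra) beside 18.9%. The median of the 9 differences was -0.0021, beside 0.018 for all genes, and 4 of 9 lay above 0, beside 55% of all genes. Without wild-type PBS 2 the median was 0.040. These shares were near those of the whole table. The 95% intervals of the 9 reached a median of 0.33 to either side of the estimate.

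In the surrounding programs of wild-type mice no gene passed either. The Th1 program had 9 of 12 genes higher with a median of 0.060, and Tbx21, its master regulator, measured -0.011 and 0.29 in NDP-MSH, against 0.15 and 0.020 in PBS. The Th17 program was split, 6 higher and 7 lower, with its smallest p at Rora (-0.72 ± 0.19, adjusted p = 0.253, and -0.44 without wild-type NDP-MSH 2), a nuclear receptor gene that cerebellar neurons also express, in the arrays with the low cerebellar transcripts. The regulatory T cell program was split likewise, and Ikzf2, which encodes the factor Helios, had the smallest p there (-0.35 ± 0.076, adjusted p = 0.195). Gpr83, with the next smallest p, went the other way, at 0.36 and 0.47 in NDP-MSH, against -0.025 and -0.47 in PBS. At an unadjusted p under 0.05, 2 of the 13 genes of this program were higher and 1 was lower. Of the Th2 program 5 of 8 were higher, and its regulator Gata3 differed by 0.047 ± 0.078. T cell identity genes were higher in 10 of 13 with a median of 0.099, and Cd3e measured 1.08 and -0.041 in NDP-MSH, against 0.24 and 0.041 in PBS. Neutrophil markers were higher in 6 of 7 (median 0.31), NK cell markers in 6 of 7 (median 0.12, 2 at an unadjusted p under 0.05), and oligodendrocyte markers lower in 5 of 5 (median -0.30, 4 at an unadjusted p under 0.05), and their part in these values was not tested. The Cd3e difference was 0.38, and -0.18 without wild-type NDP-MSH 1, the array that also held the highest Stat4, Icos and Foxp3.

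The series also compares NDP-MSH with PBS where Mc1r is inactive, in e/e mice. None of the 9 genes passed (limma), beside 0% of all genes called, and 0 of 9 had an unadjusted p under 0.05, beside 1.78% of all genes in each direction. The groups did not overlap for Csf2 in the higher direction (1 of 9, beside 16% of all genes) and for Ctla4 in the lower direction (1 of 9, beside 14.3%). Of the 9 differences 3 were above 0, beside 53.7% of all genes, and their median was -0.0885 beside 0.0082 for all genes. Leaving out e/e PBS 1 gave a median of -0.16, and leaving out e/e PBS 2, which carried Xist and Eif2s3y together, gave -0.0002. Xist was lower and Eif2s3y higher in both NDP-MSH arrays than in either PBS array, and the part of sex in these values was not tested.

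Partner genes of the 9 had mostly negative differences in e/e mice, and none passed. All 10 measured receptors of the member cytokines and interleukin 2 were lower, with a median of -0.16, and Il2rb, the signalling chain of the interleukin 2 receptor, had the smallest p (-0.57 ± 0.22, adjusted p = 1), with -0.93 with e/e PBS 1 left out and -0.22 with e/e PBS 2 left out. Of 12 ligands and inducing cytokines 9 were lower, with Icosl, the ligand of Icos, at -0.34 ± 0.14. The 10 interferon gamma targets were all lower with a median of -1.52, of which 5 had an unadjusted p under 0.05 and 0 passed. The Th1 program was lower in 9 of 12 genes (median -0.24) and T cell identity genes in 11 of 13 (median -0.18). The 10 myeloid markers had a median of -0.68 in the same comparison. As for Il2ra and Icos, the e/e PBS arrays lay apart in the myeloid list, whose median was -0.99 and -1.21 for e/e NDP-MSH, against -0.87 and 0.18 for e/e PBS.

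**Figure D3:**
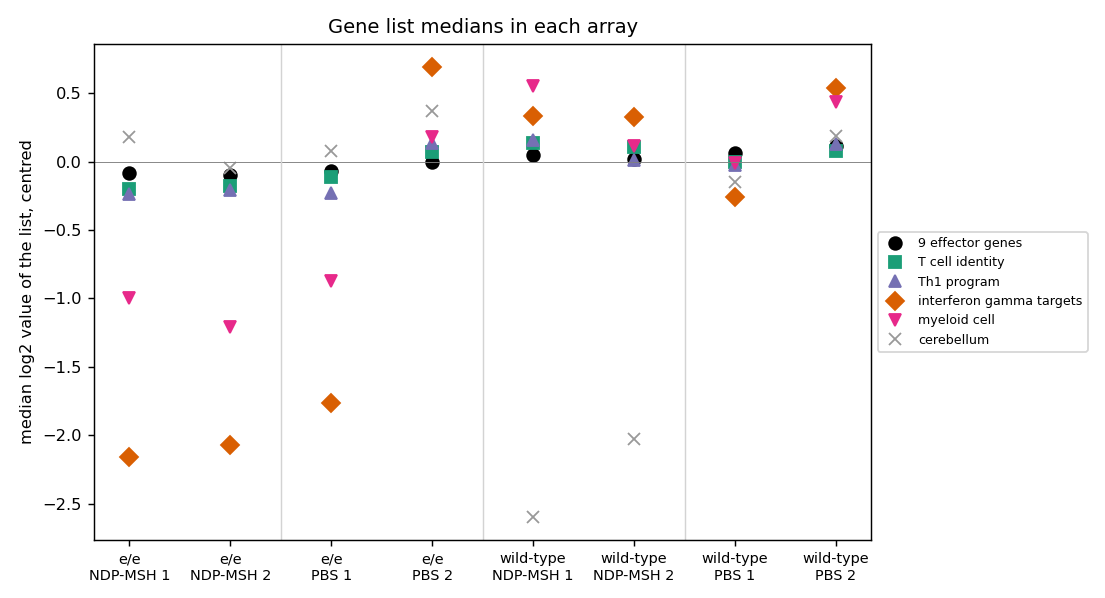
Median of each gene list in each of the 8 arrays (log2, centred): the 9 effector genes (black circles) and lists for T cell identity, the Th1 program, interferon gamma targets, myeloid cells and the cerebellum. The effector genes stay between -0.10 and 0.11, while interferon gamma targets reach -2.16 in e/e NDP-MSH 1 and cerebellar genes -2.60 in wild-type NDP-MSH 1.

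Whether the NDP-MSH effect differed between genotypes was tested as the effect in e/e minus the effect in wild-type mice. None of the 9 genes passed (limma, 0% of all genes called), and 2 of 9 had an unadjusted p under 0.05 in the lower direction, beside 3.67% of all genes, with 0 of 9 in the higher direction, beside 4.05%. These were Icos at -0.64 ± 0.26 (95% interval -1.25 to -0.031, adjusted p = 0.631) and Stat4 at -0.56 ± 0.20 (-1.03 to -0.092, adjusted p = 0.598). For Icos the effect was negative in e/e and positive in wild-type mice, and for Stat4 it was near 0 in e/e and positive in wild-type mice. The Icos value was -0.39 when e/e PBS 2 was left out and -0.89 when e/e PBS 1 was, and the Stat4 value -0.35 without wild-type NDP-MSH 1. The remaining members lay between -0.11 and 0.15, with Foxp3 at -0.062 ± 0.24 and Il2ra at -0.062 ± 0.37. Of the 9 values 2 were above 0, beside 47.2% of all genes, and their median of -0.062 ranged from -0.29 to -0.014 when arrays were left out. This comparison shares all of its arrays with the 2 above.

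The genotypes were also compared within each treatment. Under PBS, none of the 9 passed (limma, 0% of all genes called), and 1 of 9, Foxp3, had an unadjusted p under 0.05 in the lower direction, beside 2.56% of all genes, with 0 of 9 in the higher direction, beside 2.35%. The groups did not overlap for 4 of 9 in the lower direction (Csf2, Ctla4, Foxp3 and Il10), beside 16.7% of all genes, and for 0 of 9 in the higher, beside 17.4%. Of the 9 differences 2 were above 0, beside 50.1% of all genes. Their median was -0.076 (0.0002 for all genes), -0.16 without e/e PBS 2, -0.11 without e/e PBS 1, -0.13 without wild-type PBS 1 and -0.11 without wild-type PBS 2. Csf2 differed by -0.17 ± 0.092, but its second probe set lay higher in e/e PBS (0.028 and 0.087, against 0.011 and -0.011 in wild-type PBS). Csf2 was -0.091 without wild-type PBS 2. Ctla4 differed by -0.14 ± 0.092, which was -0.045 without wild-type PBS 1 and -0.24 without wild-type PBS 2. The receptors of the member cytokines were lower in all 10 measured genes with a median of -0.25. Myeloid markers were lower in 10 of 10 (median -0.45, 2 at an unadjusted p under 0.05) and B cell markers in 5 of 5 (median -0.16), and their part in these values was not tested. Icosl differed by -0.455 ± 0.14 (adjusted p = 0.93), and by -0.27 without wild-type PBS 2. T cell identity genes were lower in all 13 with a median of -0.036, and Cd4 measured -0.39 and -0.26 in e/e PBS, against 0.62 and 0.26 in wild-type PBS.

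Under NDP-MSH the difference e/e minus wild-type was negative for all 9 genes, with 0 of 9 above 0, beside 47.6% of all genes. The median was -0.18 beside -0.0081 for all genes, and -0.12 without wild-type NDP-MSH 1. None passed an adjusted p of 0.05 (limma, 0.338% of all genes called). The calls over all genes included all 5 measured cerebellar genes, higher in e/e mice, and 1 sex-linked gene, lower in e/e mice. At an unadjusted p under 0.05, 3 of 9 were lower (Foxp3, Icos and Stat4) beside 7.45% of all genes, and 0 of 9 higher beside 6.71%. The groups did not overlap for 7 of 9 in the lower direction, beside 23.6% of all genes, and for 0 of 9 in the higher, beside 20.6%, the exceptions being Csf2 and Il2ra. Stat4 differed by -0.63 ± 0.14 (95% interval -0.96 to -0.30, adjusted p = 0.12) and Icos by -0.66 ± 0.18 (-1.09 to -0.23, adjusted p = 0.176). Without wild-type NDP-MSH 1 these were -0.42 and -0.54, and without e/e NDP-MSH 1 they were -0.66 and -0.81. Without wild-type NDP-MSH 2 Stat4 was -0.84, and Ctla4, at -0.18 ± 0.092, was -0.0996 without e/e NDP-MSH 2. Il17a (-0.035 ± 0.068), Il10 (-0.0695 ± 0.074) and Ifng (-0.11 ± 0.15) did not overlap either, at differences smaller than their standard error.

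Under NDP-MSH, Cd4 and Cd3e had larger differences than any of the 9 genes. T cell identity genes were lower in 12 of 13 with a median of -0.28, 8 of them at an unadjusted p under 0.05 and 0 past the threshold. Cd4 differed by -1.33 ± 0.26 (adjusted p = 0.0933) and Cd3e by -1.35 ± 0.37 (adjusted p = 0.169), or -0.79 without wild-type NDP-MSH 1. Receptors of the member cytokines were lower in all 10 genes (median -0.44, 8 at an unadjusted p under 0.05), with Csf2rb, the signalling chain of the GM-CSF receptor, at -0.92 ± 0.20 (adjusted p = 0.118). In the regulatory T cell program 10 of 13 were lower, with the inhibitory receptor Lag3 at -0.69 ± 0.16 (adjusted p = 0.128), and in the Th1 program 10 of 12, with the checkpoint receptor Havcr2 at -0.98 ± 0.21 (adjusted p = 0.114). Among the T helper programs 1 gene passed: Stat6, which carries the interleukin 4 signal of Th2 cells and is expressed in many cell types, fell by 0.61 ± 0.087 (adjusted p = 0.0461). It lay at -0.23 and -0.41 in e/e NDP-MSH, against 0.35 and 0.25 in wild-type NDP-MSH. Its call was lost without e/e NDP-MSH 1 (adjusted p = 0.163), e/e NDP-MSH 2 (0.275), wild-type NDP-MSH 1 (0.114), wild-type NDP-MSH 2 (0.145) or either wild-type PBS array (0.0876), and the difference then ranged from -0.70 to -0.53. The interferon gamma targets were lower in 10 of 10 (median -2.47, 8 at an unadjusted p under 0.05 and 0 past the threshold). Myeloid markers were lower in 10 of 10 (median -1.37), oligodendrocyte markers were higher in 5 of 5 (median 0.48, all 5 at an unadjusted p under 0.05), and the sex-linked, cerebellar and pituitary differences listed above fall between the same arrays. Their part in the values of the 9 genes, and of listed genes such as Lag3 and Havcr2, was not tested.

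**Figure D4:**
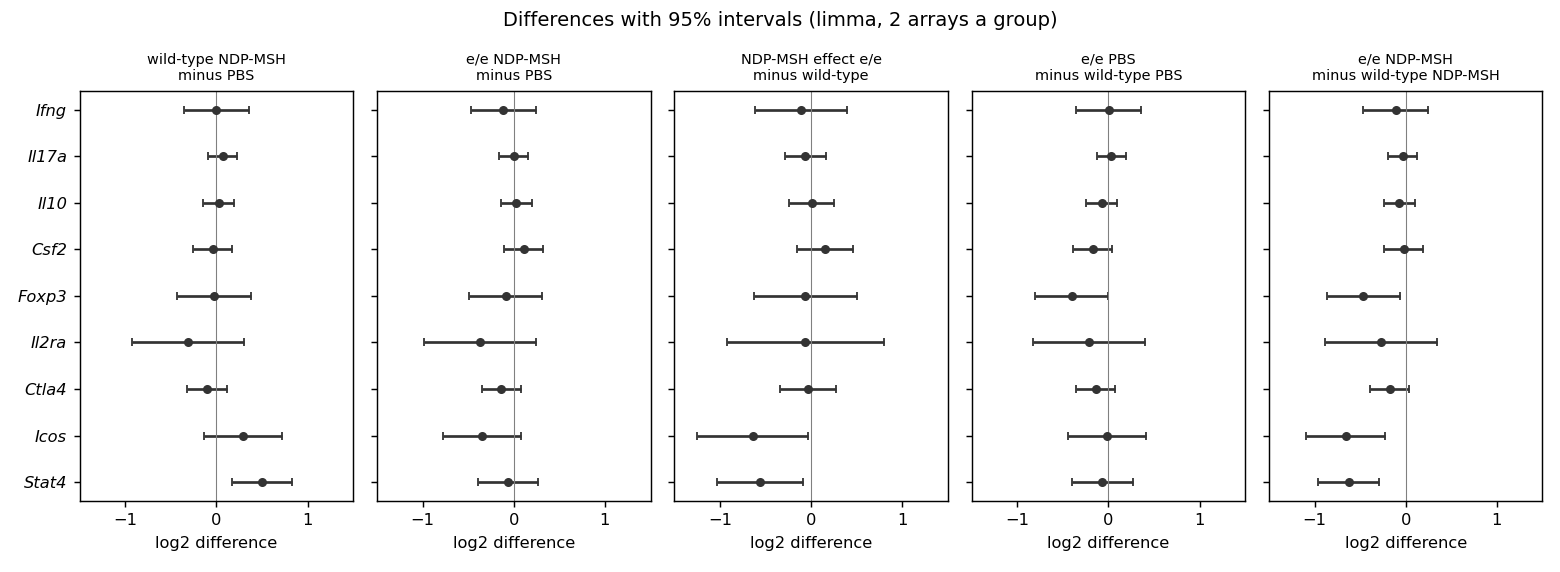
Log2 differences of the 9 genes in the 5 comparisons, with points for the limma estimates and bars for their 95% intervals (not adjusted for the number of genes). The intervals of Stat4 (0.17 to 0.83) in wild-type mice, of Icos and Stat4 in the difference of effects, of Foxp3 under PBS, and of Foxp3, Icos and Stat4 under NDP-MSH leave out 0, and no gene passed after adjustment over all genes.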

How the data were processed

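Total brain RNA was measured on 8 arrays, 1 per sample, and biotin-labelled with the WT Plus kit, per the labels' protocols. The deposited table holds 33793 probe sets as log values of the authors, taken as log2. No source used here states the base, the summarisation or the normalization between arrays. Every row is centred on its median (largest absolute median 5e-07), so only differences can be read. The platform annotation gave 1 gene symbol for 23521 probe sets, several for 1814 (left out) and none for 8458, and probe sets of a gene were averaged to 22180 genes.

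limma 3.58.1 in R 4.3.3 was fitted with 1 coefficient per group over all genes (4 residual and 3.453 prior degrees of freedom, two-sided, Benjamini-Hochberg, threshold 0.05). The code was run on simulated data with independent normal errors at each gene's fitted spread. That setting does not cover the sex, cerebellar and pituitary differences between these arrays. Named genes are the 9 members, Tbx21, Gata3, Cd3e, Cd4, and from each list the genes past the threshold or of smallest p. Nearest genes were taken for the 2 members of widest range. Predicted genes, small RNAs, and T cell receptor and immunoglobulin segments were passed over in that search. The members and lists were chosen with earlier results of these data known. Settings also tried were a block for the replicate number, estimated array weights, quantile normalization, array-median centring, only the groups compared, separate probe sets, single-probe-set genes, robust moderation and leaving out each array. Same-numbered arrays did not deviate together in all groups (correlations -0.25 to 0.44), so the numbers were not taken as pairs. Scan dates and disease scores were not used here. The number of arrays limits the precision. Figures used matplotlib 3.10.9 in Python 3.11.15.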

Additional observations from a re-analysis of the deposited data

How the results depend on the processing

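None of the 9 genes passed the threshold in any of the 5 comparisons under any of the 16 alternative settings (15 for the difference of effects, which needs all groups; limma, smallest adjusted p = 0.0747, for Icos under NDP-MSH between genotypes with one or the other e/e PBS array left out). No paired design was established, and with the replicate block the members' counts stayed at 0, while the calls over all genes were 14 in place of 39 for NDP-MSH in wild-type mice and 51 in place of 75 between genotypes under NDP-MSH. These 2 counts were 15 and 16 after quantile normalization and 5 and 477 with only the groups compared, and ranged from 0 to 49 and from 0 to 471 when arrays were left out. In e/e mice leaving out an array gave 0 to 51 calls, the difference of effects gave 0 to 7 (1 after quantile normalization), and the genotypes under PBS gave 0 to 4. Stat6 lost its call with the replicate block (adjusted p = 0.0799), array weights (0.063), quantile normalization (0.143) and separate probe sets (0.0513). The cause was not tested.

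Differences close to 0 changed sign. After quantile normalization Ifng lay at 0.0092 and Il10 at -0.014 (wild-type NDP-MSH minus PBS), Il17a at -0.0040 (e/e NDP-MSH minus PBS, and -0.0013 with array-median centring), Ifng at -0.0031 (between genotypes under PBS, and -0.0010 with array-median centring) and Csf2 at 0.0052 (between genotypes under NDP-MSH). The second Csf2 probe set gave -0.13 (e/e), -0.12 (difference of effects) and 0.057 (under PBS), and the first 0.021 (under NDP-MSH). Leaving out single arrays turned the sign within the ranges that follow, where the lone array of a group is assumed to vary like the other groups. For wild-type NDP-MSH minus PBS, Csf2 lay between -0.13 and 0.040, Foxp3 -0.19 and 0.14, Ifng -0.18 and 0.17, and Il10 -0.024 and 0.070. For e/e NDP-MSH minus PBS, Foxp3 lay between -0.32 and 0.14, Ifng -0.30 and 0.072, Il10 -0.0002 and 0.060, Il17a -0.016 and 0.017, and Il2ra -0.80 and 0.056. For the difference of effects, Ctla4 lay between -0.13 and 0.062, Foxp3 -0.29 and 0.17, Ifng -0.30 and 0.074, Il10 -0.041 and 0.053, and Il2ra -0.49 and 0.37. Between genotypes, Icos lay between -0.26 and 0.23, Ifng -0.19 and 0.19, Il2ra -0.64 and 0.22, and Stat4 -0.17 and 0.041 under PBS, and Csf2 between -0.11 and 0.060 under NDP-MSH.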
